A study of Mus musculus with 38 samples.

Results

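The genes described here are 7 keratins (Krt7, Krt8, Krt18, Krt19, Krt14, Krt17 and Krt42), the transglutaminases Tgm1 and Tgm2, and the epithelial membrane protein Emp1. They were taken by symbol from the deposited count table, and all 10 had counts above 0, out of 22408 genes with counts and 55385 genes listed. They were chosen by their levels in wild-type cells after 24 h of BRM014, so every comparison that holds those libraries is given as a description without a test. The level of Tgm2 after 24 h of the inactive analog was also in view and is described in the same way. The wild-type DMSO 24 h libraries were the vehicle set against BRM014 when the genes were chosen. Comparisons below that share these libraries are tested, but their p-values are not independent of the choice. These comparisons are the analog at 24 h, DMSO over time, the washouts of 6 h and 24 h against DMSO 24 h, and the knockout lines against wild type. BRM014 up to 6 h and in the knockout lines was compared in other libraries, but with the same drug. High counts of called members there may follow in part from the choice.

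Keratins are the intermediate filament proteins of epithelia, and a filament forms when a type I keratin pairs with a type II keratin. Krt8 (type II) and Krt18 (type I) form the pair of simple epithelia and are the first keratins made in the mouse embryo, in the trophectoderm. Krt7 and Krt19 belong to simple and glandular epithelia, whereas Krt14, Krt17 and Krt42 are type I keratins of stratified epithelia and skin appendages. Transglutaminases crosslink proteins: Tgm1 builds the cornified envelope of the epidermis, and Tgm2 is a widely expressed tissue enzyme that also binds GTP. Emp1 is a small membrane protein of the Pmp22 family.

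Wild-type mouse embryonic stem cells of strain 129S6/SvEvTac, and knockout lines, were grown with serum and LIF on gelatin. BRM014 blocks the ATPases of the SWI/SNF chromatin remodeller, and a related compound labelled as its inactive analog served as a control besides the solvent, DMSO. The experimental batch labelled 2450, called the first batch below, holds 26 libraries of wild-type cells in 13 groups of 2. In 5 groups BRM014 at 10 uM was left on the cells, with collection 30 min, 1 h, 3 h, 6 h and 24 h after addition. In 4 groups it was washed out: a 1 h exposure was followed by 30 min or by 1 h without drug, and a 24 h exposure by 6 h or by 24 h without drug. The other groups had the inactive analog at 10 uM, collected at 1 h and at 24 h, and DMSO, collected at 1 h and at 24 h. The batch labelled 2457, the second batch, holds 12 libraries in 6 groups of 2, with 24 h of 10 uM BRM014 or of DMSO in cells labelled Ino80ko, Snf2hko and wildtype. The labels give no vehicle for 30 min, 3 h and 6 h, no washed vehicle, no dose for the washout groups, and neither the alleles nor the clones of the knockout lines. DMSO 1 h was the vehicle for treatments up to 6 h. The replicates are called biological without a statement of separate cultures, so each p-value reflects the scatter of these libraries alone, part of which may be technical.

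Library totals ran from 19349695 to 23053021 counts in the first batch and from 21948010 to 44453556 counts in the second. The ES cell markers were all detected (8 of 8, summed at 4020 to 6318 CPM, read counts scaled to library size with TMM factors), while the defining markers Gata3 (trophectoderm) and Trp63 (epidermis) were at 0 counts in every library. Ino80 RNA was present in the libraries labelled Ino80ko at 124 to 146 CPM, in those labelled Snf2hko at 121 to 138 CPM, and in wild type of the second batch at 162 to 176 CPM, so gene-level counts do not separate the Ino80ko label from the Snf2hko label. Smarca5, which encodes SNF2H, is listed at 0 counts in all 38 libraries, wild type included, and checks nothing. Smarca4, a SWI/SNF ATPase gene, is likewise at 0 counts in all of them. A 0 for Gata3, Trp63 or another marker below may therefore not mean that the RNA was absent.

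The 7 keratin genes lie in the type I and type II keratin clusters of the mouse genome. In GENCODE M21 on GRCm38, Krt14 (chr11:100203162-100207548), Krt17 (chr11:100256217-100261029), Krt42 (chr11:100262882-100269871) and Krt19 (chr11:100140810-100148665) all lie on the minus strand of chromosome 11. Krt8 (chr15:101996698-102004482, minus strand) and Krt18 (chr15:102028180-102032027, plus strand) lie on chromosome 15, which holds Krt7 as well (chr15:101411043-101430313). Tgm1 is at chr14:55700009-55713926, Tgm2 at chr2:158116402-158146436 and Emp1 at chr6:135362545-135383173. Of the 50-base windows in the Krt8 transcripts, 26.9% also occur in Krt8-ps, a pseudogene with 0 counts. For Krt14 the share is 13.9%, with Krt16 and Krt17, and for Krt17 it is 3.99%. Reads of Krt8, Krt14 and Krt17 may therefore be split or dropped by the counting. The other members were under 1%.

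The start regions of 5 members are printed because they stand for the 2 behaviours that recur below: Emp1, Tgm1 and Krt42 stood far below the vehicle after 24 h of BRM014, and Krt8 and Krt18 form the abundant keratin pair. RefSeq windows (GRCm38.p6, 250 bases before to 50 after the annotated start) were found for 7 of the 10 members. They lie at chr6:135362681-135362980 (plus strand, Emp1), chr14:55713443-55713742 (minus, Tgm1), chr11:100269902-100270201 (minus, Krt42), chr15:102004293-102004592 (minus, Krt8) and chr15:102027966-102028265 (plus, Krt18). The annotated starts of these windows lie 386 (Emp1), 434 (Tgm1), 80 (Krt42), 140 (Krt8) and 36 (Krt18) bases from the GENCODE gene start. Those of the other windows lie 1360 (Krt7) and 1518 (Krt14) bases from it. RefSeq listed 2 windows each for Emp1 and Tgm1, of which the nearer was used. Capitals mark matches, on either strand, to 5 motifs: AP-1 (TGANTCA), AP-2 (GCCNNNGGC), TEAD (GGAATG), the GC box (GGGCGG) and the TATA box (TATAAA).
Emp1: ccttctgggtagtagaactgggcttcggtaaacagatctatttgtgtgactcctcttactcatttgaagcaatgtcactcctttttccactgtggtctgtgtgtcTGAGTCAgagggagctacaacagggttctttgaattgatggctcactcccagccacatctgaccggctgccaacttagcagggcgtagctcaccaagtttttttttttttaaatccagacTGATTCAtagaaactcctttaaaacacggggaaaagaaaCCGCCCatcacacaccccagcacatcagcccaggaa
Tgm1: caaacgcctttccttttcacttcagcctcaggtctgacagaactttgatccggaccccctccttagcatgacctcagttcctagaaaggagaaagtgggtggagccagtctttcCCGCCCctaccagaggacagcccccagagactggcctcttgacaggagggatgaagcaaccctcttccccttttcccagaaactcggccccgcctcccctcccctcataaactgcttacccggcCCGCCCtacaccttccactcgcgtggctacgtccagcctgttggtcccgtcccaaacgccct
Krt42: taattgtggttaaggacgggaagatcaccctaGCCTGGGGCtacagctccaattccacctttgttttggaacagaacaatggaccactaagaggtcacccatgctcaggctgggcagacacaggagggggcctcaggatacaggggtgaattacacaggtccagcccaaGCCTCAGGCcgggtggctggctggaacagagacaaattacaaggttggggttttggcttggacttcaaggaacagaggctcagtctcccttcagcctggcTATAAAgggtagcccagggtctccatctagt
Krt8: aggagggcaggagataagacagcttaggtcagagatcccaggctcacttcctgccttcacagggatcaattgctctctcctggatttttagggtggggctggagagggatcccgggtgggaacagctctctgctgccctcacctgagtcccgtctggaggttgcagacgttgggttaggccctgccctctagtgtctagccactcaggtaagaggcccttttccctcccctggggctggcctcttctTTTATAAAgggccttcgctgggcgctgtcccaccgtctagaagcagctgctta
Krt18: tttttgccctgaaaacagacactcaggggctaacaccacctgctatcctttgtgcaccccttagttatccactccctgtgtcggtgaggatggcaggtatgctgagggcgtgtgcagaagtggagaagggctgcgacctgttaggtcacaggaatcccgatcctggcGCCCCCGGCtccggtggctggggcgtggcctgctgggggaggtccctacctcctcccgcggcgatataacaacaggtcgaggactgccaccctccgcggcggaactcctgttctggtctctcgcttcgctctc
Emp1 alone of the 7 windows held AP-1 matches, 2 of them (TGAGTCA and TGATTCA), where 7.81% of all 32851 RefSeq windows hold at least 1. AP-2 matches stood in Krt7, Krt18 and Krt42 (16.6% of all windows), and TATA box matches in Krt8 and Krt42 (13.6%), where the 2 TATA matches of Krt8 overlap on opposite strands. Counted from the annotated start of the window, the Krt8 matches begin at bases -3 and -1 and the Krt42 match at base 20. GC boxes stood in Krt7, Tgm1 and Emp1 (35.7%), a TEAD match in Krt14 (14.7%), and the octamer ATGCAAAT in 0 of the 7 (1.74%). These are matches of letters and say nothing of binding.

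Per kilobase of exon, the simple keratin pair and Tgm1 were the most abundant members. The median level over the 38 libraries was 70.1 CPM per kb for Krt8, 64.9 for Krt18 and 51.9 for Tgm1. Krt42 followed at 10.3, Tgm2 at 9.30, Krt17 at 8.97, Krt19 at 6.91 and Emp1 at 4.33 CPM per kb. Krt14 (1.21) and Krt7 (0.305) were scarce, with 1 to 162 and 5 to 238 counts per library, and their values carry the widest errors. Over the 19 group means, levels spanned the widest ratio for Krt19, 0.241 to 33.1 CPM, and the narrowest for Krt18, 30.1 to 206 CPM. They spanned 2.27 to 145 CPM for Emp1 and 6.80 to 426 CPM for Tgm1.

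Levels after 24 h of BRM014 in wild type, which guided the choice of genes, are given for reference. Tgm1 was at 14.9 and 14.13 CPM with BRM014, against 155 and 148 CPM with DMSO, in the first batch, and at 16.5 and 16.4 against 185 and 162 CPM in the second. Krt17 was at 1.29 and 0.855 against 19.7 and 15.1 CPM, and Krt42 at 1.78 and 1.61 against 23.6 and 17.4 CPM, in the first batch. Emp1 was at 2.38 and 2.16 against 42.2 and 35.6 CPM. For all 4 genes the treated libraries lay far below both DMSO libraries. The log2 differences of the 10 members, first and second batch, were -4.10 and -3.42 for Emp1, -4.02 and -3.33 for Krt17, -3.60 and -3.47 for Krt42, -3.39 and -3.41 for Tgm1, and -3.22 and -2.78 for Krt19. They were -2.74 and -2.47 for Krt14, -0.95 and -1.84 for Krt7, -0.77 and -0.44 for Krt8, -0.49 and -0.16 for Krt18, and 0.50 and 1.59 for Tgm2. The fits called 45.8% of all genes in the first batch and 42.3% in the second.

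**Figure D1:**
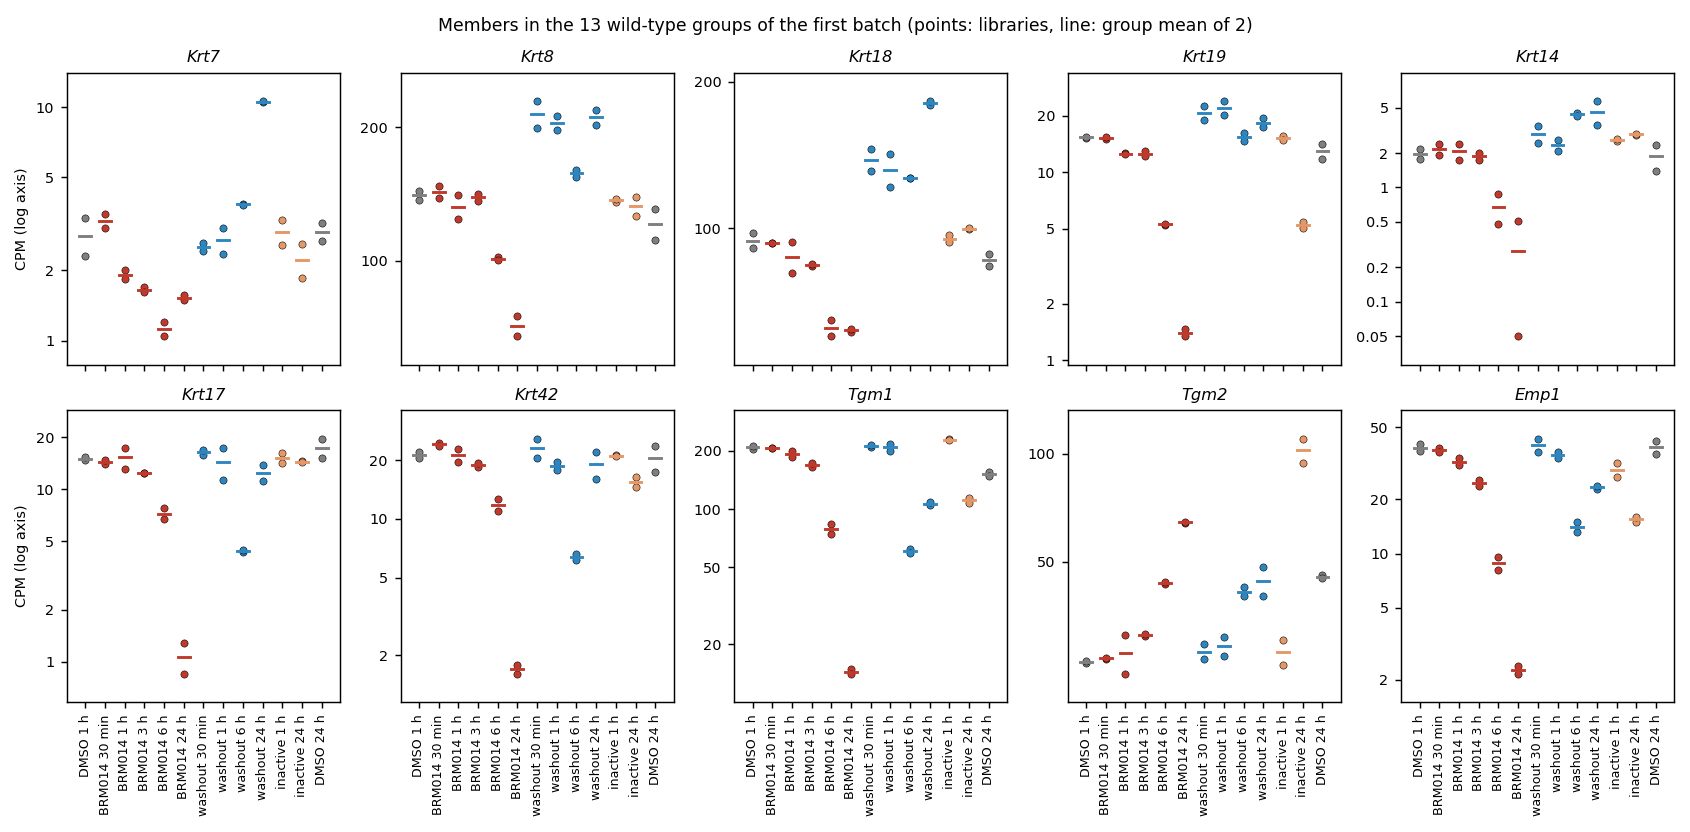
Levels of the 10 members in the first batch, in CPM on a log axis, with each library as a point and the mean of each group of 2 as a line. After 24 h of BRM014 Tgm1 lies at 14.13 to 14.9 CPM and after 24 h of DMSO at 148 to 155 CPM; Krt8 stands highest in the short washouts (197 to 229 CPM) and after 24 h of washout (202 to 219 CPM).

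During the first hour of BRM014 no member passed the threshold. After 30 min edgeR called 0 of the 10 members and 0% of all genes (348 genes and 0 members had an unadjusted p under 0.05), and DESeq2 called 0 members. After 1 h it called 0 members against 0.599% of all genes (0.216% higher, 0.383% lower), with 3 members at an unadjusted p under 0.05 and 0 called by DESeq2. Those 3, Krt7, Krt19 and Emp1, had log2 differences of -0.56 (95% interval -1.02 to -0.10), -0.29 (-0.53 to -0.06) and -0.26 (-0.48 to -0.04), with adjusted p-values of 0.409, 0.392 and 0.426 in edgeR's test.

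By 3 h, 3 of the 10 members had fallen and 0 had risen, where 22.6% of all genes were called (10.5% higher, 12.1% lower). Emp1 was at 23.8 and 25.5 CPM after 3 h of BRM014, against 40.2 and 36.8 CPM after DMSO 1 h, and fell by 0.64 ± 0.11 on the log2 scale (SE, adjusted p = 6.26e-05). Tgm1 was at 166 and 173 CPM, against 205 and 213 CPM (-0.30 ± 0.06, adjusted p = 0.000558). Krt7 was at 1.69 and 1.61 CPM, against 2.29 and 3.34 CPM (-0.77 ± 0.23, adjusted p = 0.0163). The treated libraries lay below both vehicle libraries for all 3 genes. The Krt7 call rested on single libraries: without replicate 2 of DMSO 1 h it was -0.47 (adjusted p = 0.313), and without replicate 1 or 2 of the treated group its adjusted p was 0.0676 or 0.106. Tgm1 moved in the vehicle as well, as given with the vehicle comparison below, and its difference at 3 h turned to 0.16 (adjusted p = 0.0482) against DMSO 24 h. The remaining 7 members, Tgm2 among them (0.25 ± 0.11, adjusted p = 0.0836), did not pass. Marker sums of other cell types moved at the same time. A sum can follow a few of its genes. The epidermis list holds Grhl3 and the trophectoderm list holds Tfap2c, which are also named below among the epithelial transcription factors at 6 h. The epidermis or surface ectoderm sum (9 of 10 with counts) was 18.6 to 18.9 CPM after 3 h of BRM014, against 42.1 to 42.4 CPM after DMSO 1 h, and the trophectoderm sum (8 of 9) 44.4 to 45.2 CPM, against 68.0 to 73.6 CPM. Their part in the result was not tested.

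By 6 h all 10 members were called, 9 lower and 1 higher, where 41.1% of all genes were called (20.7% lower, 20.3% higher). The median log2 difference of the members was -1.19, while that of all genes lay between -0.024 and 0.019 in every comparison made here. Emp1 was at 8.15 and 9.57 CPM after 6 h of BRM014, against 40.2 and 36.8 CPM after DMSO 1 h (-2.12 ± 0.12, adjusted p = 4.44e-14). Tgm1 was at 74.4 and 83.9 CPM, against 205 and 213 CPM (-1.40 ± 0.06, adjusted p = 3.3e-16). Krt19 was at 5.25 and 5.34 CPM, against 15.3 and 15.5 CPM (-1.53 ± 0.13, adjusted p = 7.97e-11). Treated and vehicle libraries did not overlap for any member. With 2 libraries in each group, lack of overlap is a description in this and the other comparisons. Its share over all genes was not counted. The epidermis sum was 15.8 to 17.2 CPM after 6 h of BRM014, against 42.1 to 42.4 CPM after DMSO 1 h, and the trophectoderm sum 41.2 to 43.6 CPM, against 68.0 to 73.6 CPM. The fibroblast or mesenchyme sum (6 of 9 with counts, Col1a2, Zeb1 and Zeb2 at 0) was higher, at 249.8 to 255 CPM against 182 to 184 CPM, and the part of these markers in the result was not tested. In bulk RNA, fewer cells making a transcript and less of it per cell cannot be told apart.

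The keratins of stratified epithelia fell with the others at 6 h. Krt17 was at 7.76 and 6.72 CPM after 6 h of BRM014, against 14.8 and 15.3 CPM after DMSO 1 h (-1.05 ± 0.17, adjusted p = 1.58e-05), and Krt42 at 10.97 and 12.7 CPM, against 21.9 and 20.4 CPM (-0.83 ± 0.14, adjusted p = 2.44e-05). Krt14, at 0.477 and 0.874 CPM against 1.79 and 2.167 CPM, fell by 1.55 ± 0.40 (adjusted p = 0.00224), a call lost without replicate 1 of the treated group (-1.17, adjusted p = 0.0606). Krt7, the simple-epithelium partner of low level, fell by 1.33 ± 0.25 (adjusted p = 7.34e-05). The abundant pair fell least: Krt8 was at 102 and 100 CPM against 137 and 144 CPM (-0.47 ± 0.08, adjusted p = 1.69e-05), and Krt18 at 60.0 and 64.8 CPM against 91.1 and 97.6 CPM (-0.59 ± 0.07, adjusted p = 1.9e-07). Tgm2 went the other way, at 43.2 and 43.8 CPM against 26.2 and 26.3 CPM (0.73 ± 0.10, adjusted p = 1.45e-06). That call depends on the vehicle, since Tgm2 also rose in DMSO by 24 h: against DMSO 24 h the difference was -0.07 (adjusted p = 0.618).

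Other genes of the same structures were also followed at 6 h against DMSO 1 h, beside 41.1% of all genes called. Their lists were written from textbook knowledge, but with earlier results of these data known. Of 11 tested keratins outside the member list, 0 were higher and 4 lower (list median -0.89). Among them Krt6a, a wound and hair-follicle keratin, averaged 0.962 ± 0.0720 CPM with BRM014 and 2.48 ± 0.192 CPM with DMSO (SD, n = 2 each; log2 -1.36 ± 0.29, adjusted p = 0.000331), and Krt13 changed by -1.04 ± 0.28 (adjusted p = 0.00329). Of 4 tested simple keratins and filament partners, 0 were higher and 2 lower (median -0.66), including Krt23 (-2.81 ± 0.43, adjusted p = 4.66e-06). Tgm3, the one further transglutaminase that could be tested, changed by -1.14 ± 0.25 (adjusted p = 0.00046). Of the 5 other Emp and Pmp22 family genes, 1 was higher and 4 lower (median -1.12), with Emp2 at -1.16 ± 0.14 and Pmp22, a myelin protein, at -2.03 ± 0.33.

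Desmosome genes and epithelial regulators were mostly lower where called, and tight junction genes went both ways. Of 12 tested desmosome and hemidesmosome genes, which anchor keratin filaments to the membrane, 0 were higher and 7 lower (median -0.54). Jup, plakoglobin, averaged 93.8 ± 5.55 CPM with BRM014 and 228 ± 3.05 CPM with DMSO (SD, n = 2 each; -1.28 ± 0.07, adjusted p = 4.79e-14), and plakophilin Pkp3 changed by -1.83 ± 0.18 (adjusted p = 3.81e-09). Of 13 tested epithelial transcription factors, 1 was higher and 7 lower (median -0.77), led by Tfap2c, an AP-2 factor (-1.74 ± 0.09), Grhl3 (-1.43 ± 0.09) and Grhl2 (-0.97 ± 0.08). Of 10 tested cornified envelope genes 1 was higher and 5 lower (median -0.31), including the annexin Anxa1 (-1.04 ± 0.11). Of 18 tight junction and adhesion genes 4 were higher and 5 lower (median -0.06), where the claudin Cldn6 fell (-1.07 ± 0.07) and occludin, Ocln, rose (1.11 ± 0.12, adjusted p = 7.27e-09).

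**Figure D2:**
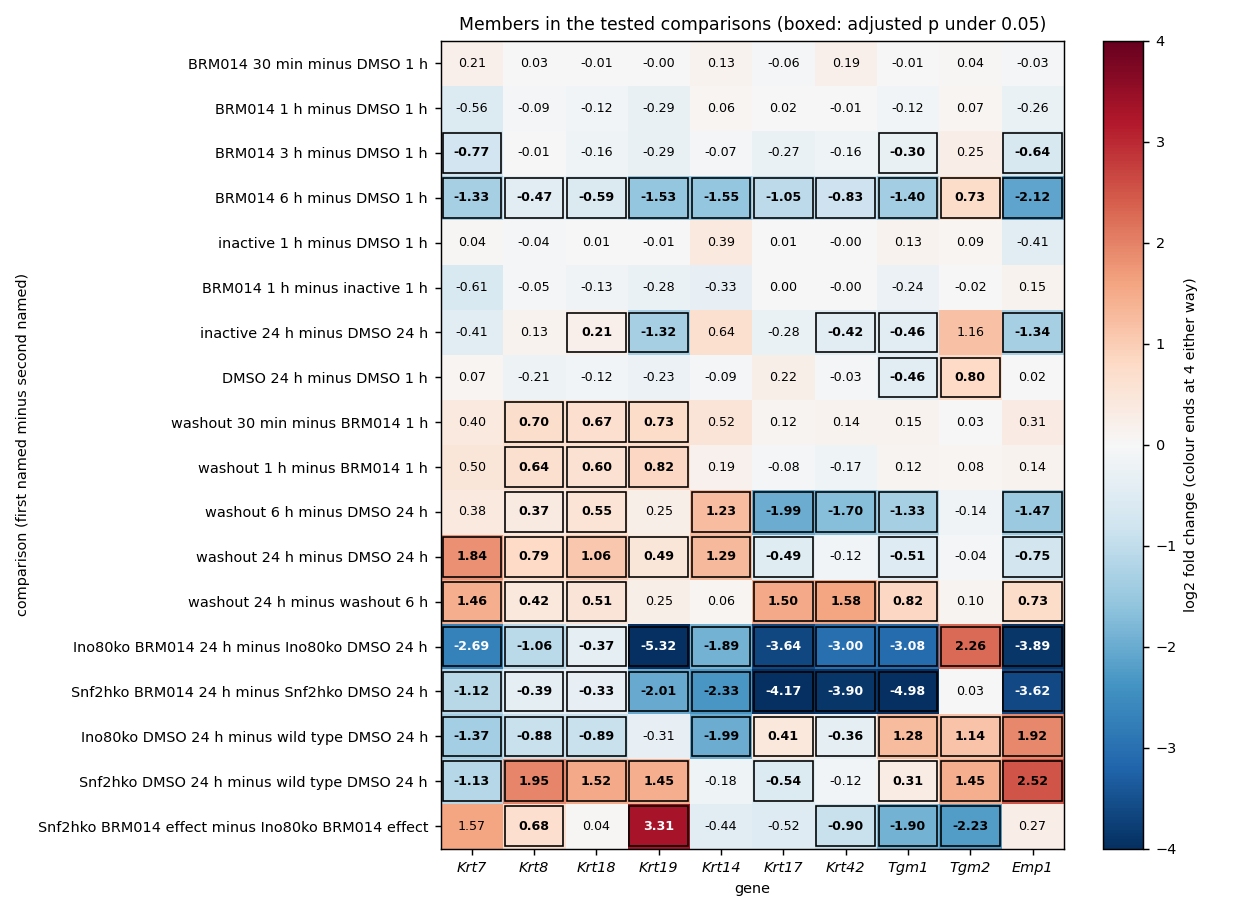
Log2 fold changes of the 10 members in the 18 tested comparisons, first named group minus second, with colour ending at 4 in either direction and boxes around values with an adjusted p under 0.05. The row of BRM014 6 h is blue in 9 members and red in Tgm2 (0.73), and the rows of the short washouts have boxes in Krt8, Krt18 and Krt19. Tgm2 in the inactive 24 h row is a description and carries no box.

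The inactive analog gave no member call at 1 h and several at 24 h. After 1 h of the analog against DMSO 1 h, 0 members were called by edgeR and by DESeq2, with 2 at an unadjusted p under 0.05 and 0.184% of all genes called (0.0559% higher, 0.128% lower). BRM014 and the analog, both at 10 uM for 1 h, were also set against each other directly: 0 members were called by either tool, 3 had an unadjusted p under 0.05, and 0.16% of all genes were called (0.0719% higher, 0.0879% lower). In that comparison the intervals were -0.37 to -0.12 for Tgm1, -1.06 to -0.15 for Krt7, -0.51 to -0.05 for Krt19 and -0.07 to 0.37 for Emp1 (log2, 95%), so differences of those sizes remain possible. Without replicate 2 of the analog 1 h group, Emp1 was called lower with the analog than with DMSO (-0.55, adjusted p = 0.0496).

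After 24 h of the analog 4 members were lower and Krt18 higher than after DMSO 24 h, where 18.4% of all genes were called (8.91% higher, 9.52% lower). Emp1 was at 14.9 and 16.0 CPM with the analog, against 42.2 and 35.6 CPM with DMSO (-1.34 ± 0.11, adjusted p = 1.72e-09). Krt19 was at 5.03 and 5.45 CPM, against 14.14 and 11.8 CPM (-1.32 ± 0.13, adjusted p = 2.22e-08), and Tgm1 at 115 and 107 CPM, against 155 and 148 CPM (-0.46 ± 0.06, adjusted p = 4.62e-06). The analog libraries were below both DMSO libraries for these 3 genes. Tgm2, described only, was at 110 and 94.4 CPM with the analog, against 46.0 and 44.9 CPM with DMSO and 64.0 and 64.6 CPM with BRM014. Krt42 (-0.42 ± 0.14, adjusted p = 0.0351) lost its call without replicate 1 of DMSO 24 h (-0.18, adjusted p = 0.471) and without replicate 1 or 2 of the analog (adjusted p = 0.0673 and 0.255). Krt18 (0.21 ± 0.07, adjusted p = 0.0485) lost it without replicate 2 of DMSO 24 h (adjusted p = 0.194), without replicate 1 or 2 of the analog (0.112 and 0.148) and in DESeq2 (0.055). Krt8 did not pass (0.13 ± 0.08, adjusted p = 0.287), but was called without replicate 1 of DMSO 24 h (0.24, adjusted p = 0.0482). Krt17 and Krt14 did not pass (-0.28 ± 0.16 and 0.64 ± 0.32, adjusted p = 0.243 and 0.165). The endoderm marker sum was 176 to 192 CPM with the analog, against 245 to 269 CPM with DMSO, and the mesenchyme sum 119 to 135 CPM, against 170 to 172 CPM; their part in these results was not tested. BRM014 and the analog at 24 h differed by -3.74 log2 for Krt17 and -3.18 for Krt42, as a description, with 35.4% of all genes called in that comparison.

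The vehicle itself moved in 2 members between 1 h and 24 h, where 18.5% of all genes were called (8.91% higher, 9.63% lower). Tgm1 was at 155 and 148 CPM after DMSO 24 h, against 205 and 213 CPM after DMSO 1 h (-0.46 ± 0.06, adjusted p = 4.35e-06). Tgm2 was at 46.0 and 44.9 CPM, against 26.2 and 26.3 CPM (0.80 ± 0.10, adjusted p = 2.6e-06). In the second batch DMSO 24 h gave 21.9 and 18.2 CPM of Tgm2, so its vehicle level differed more between the batches than between the libraries of either. Krt8 did not pass (-0.21 ± 0.08, adjusted p = 0.0653), but was called without replicate 1 of DMSO 24 h (-0.32, adjusted p = 0.00795).

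After short washouts 3 keratins stood above their level under the drug, and the other members did not pass. After 30 min of washout 3 members were higher and 0 lower than after 1 h of BRM014, where 5.9% of all genes were called (2.88% higher, 3.01% lower), and after 1 h of washout it was again 3 and 0, with 3.98% of all genes called (3.02% higher, 0.959% lower). Krt8 was at 199 and 229 CPM after 30 min of washout and at 211 and 197 CPM after 1 h, against 141 and 124 CPM after 1 h of BRM014 (0.70 ± 0.08 and 0.64 ± 0.08, adjusted p = 9.05e-07 and 2.07e-06). Krt18 was at 131 and 145 CPM and at 142 and 121 CPM, against 93.6 and 81.0 CPM (0.67 ± 0.07 and 0.60 ± 0.07, adjusted p = 6.25e-07 and 1.84e-06). Krt19 was at 18.96 and 22.5 CPM and at 23.8 and 20.2 CPM, against 12.7 and 12.5 CPM (0.73 ± 0.11 and 0.82 ± 0.11, adjusted p = 9.81e-05 and 1.26e-05). All washout libraries stood above both libraries under drug, and also above DMSO 1 h, which held 137 and 144 CPM of Krt8. Both comparisons share the same BRM014 1 h libraries. Emp1 was called after 30 min without replicate 1 of that washout (0.44, adjusted p = 0.0196).

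Endoderm markers moved with these 3 keratins in the short washouts. The summed level of the primitive and visceral endoderm markers (9 of 10 with counts, Pdgfra at 0) was 301 to 312 CPM after 30 min and 345 to 371 CPM after 1 h of washout, against 227 to 228 CPM after 1 h of BRM014. Of 8 tested markers 4 were higher after 30 min and 5 after 1 h, and 0 were lower, where 2.88% and 3.02% of all genes were called higher. Gata6, a master regulator of primitive endoderm, rose by 0.54 ± 0.09 and 0.75 ± 0.09 (adjusted p = 0.000634 and 3.31e-06). The mesenchyme sum was 195 to 210.4 CPM after 30 min and 214 to 235 CPM after 1 h of washout, against 182 to 190.3 CPM after 1 h of BRM014. In the same order, the trophectoderm sum was lower, at 56.3 to 60.3 and 58.4 to 59.8 CPM, against 63.1 to 66.3 CPM. The epidermis sum was 34.4 to 37.5 CPM after 30 min and 29.4 to 31.4 CPM after 1 h of washout, against 33.9 to 35.8 CPM. The part of these markers in the keratin result was not tested.

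After 6 h of washout of a 24 h treatment the members split into a group above and a group below the vehicle. Of the 10, 3 were higher and 4 lower than after DMSO 24 h, where 39.8% of all genes were called (20.8% higher, 19% lower). Krt17 was at 4.34 and 4.45 CPM, against 19.7 and 15.1 CPM (-1.99 ± 0.18, adjusted p = 2.13e-09), and Krt42 at 6.58 and 6.13 CPM, against 23.6 and 17.4 CPM (-1.70 ± 0.16, adjusted p = 1.05e-09). Tgm1 was at 62.0 and 59.1 CPM, against 155 and 148 CPM (-1.33 ± 0.06, adjusted p = 1.95e-15), and Emp1 at 13.2 and 15.0 CPM, against 42.2 and 35.6 CPM (-1.47 ± 0.11, adjusted p = 4.63e-11). These 4 genes lay between their levels under 24 h of BRM014 and those in DMSO, with no overlap. Krt14 was higher, at 4.47 and 4.25 CPM against 1.40 and 2.36 CPM (1.23 ± 0.30, adjusted p = 0.00177), as were Krt18 (0.55 ± 0.07, adjusted p = 6.68e-07) and Krt8 (0.37 ± 0.08, adjusted p = 0.000322). Wild-type DMSO 24 h of the second batch held 4.24 and 2.84 CPM of Krt14, so its vehicle level differed between the batches. Against DMSO 1 h the Krt8 difference was 0.17 and did not pass (adjusted p = 0.086). Krt19, at 16.2 and 14.7 CPM against 14.14 and 11.8 CPM, did not pass (0.25 ± 0.11, adjusted p = 0.091), but was called without replicate 1 of DMSO 24 h (0.38, adjusted p = 0.0378). The mesenchyme sum was 375 to 382 CPM after 6 h of washout, against 170 to 172 CPM in DMSO 24 h, and the trophectoderm sum 101 to 106 CPM, against 78.8 to 79.7 CPM. The endoderm sum was 238 to 241 CPM, against 245 to 269 CPM, and the epidermis sum 48.1 to 49.9 CPM, against 40.9 to 44.5 CPM. Their part in these results was not tested.

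By 24 h of washout Krt7, Krt8, Krt18, Krt19 and Krt14 stood above the vehicle, and Tgm1, Emp1 and Krt17 below it. Against DMSO 24 h 5 members were higher and 3 lower, where 17.4% of all genes were called (8.91% higher, 8.52% lower). Krt7 was at 10.5 and 10.6 CPM, against 3.20 and 2.66 CPM (1.84 ± 0.18, adjusted p = 2.91e-08), its highest level in the series. Krt18 was at 179 and 182 CPM, against 88.7 and 83.8 CPM (1.06 ± 0.07, adjusted p = 1.42e-11), and Krt8 at 219 and 202 CPM, against 131 and 112 CPM (0.79 ± 0.08, adjusted p = 1.7e-08). None of these 3 keratins overlapped with the vehicle. Krt14, at 5.66 and 3.51 CPM, overlapped with wild-type DMSO 24 h of the second batch (4.24 and 2.84 CPM). Krt14 (1.29 ± 0.30, adjusted p = 0.00305) lost its call without replicate 1 of DMSO 24 h (0.94, adjusted p = 0.0504) or of the washout (0.92, adjusted p = 0.0885), and Krt19 (0.49 ± 0.11, adjusted p = 0.00268) without replicate 2 of DMSO 24 h (0.38, adjusted p = 0.0776). Krt19 also lost it against DMSO 1 h (0.26, adjusted p = 0.0849) and in a fit of the compared libraries alone (adjusted p = 0.0752).

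Emp1 and Tgm1 were still below the vehicle at that time. Emp1 was at 22.8 and 23.6 CPM after 24 h of washout, against 42.2 and 35.6 CPM after DMSO 24 h (-0.75 ± 0.11, adjusted p = 1.4e-05), and Tgm1 at 106 and 108 CPM, against 155 and 148 CPM (-0.51 ± 0.06, adjusted p = 9.61e-07). Krt17 (-0.49 ± 0.16, adjusted p = 0.0349) lost its call without replicate 1 of DMSO 24 h (-0.29, adjusted p = 0.297) or replicate 2 of the washout (-0.34, adjusted p = 0.277), against DMSO 1 h (-0.27, adjusted p = 0.235) and in a fit of the compared libraries alone (adjusted p = 0.122). Krt42, at 22.0 and 16.0 CPM, overlapped with its vehicle (-0.12 ± 0.14, adjusted p = 0.61). The endoderm marker sum was 185 to 203 CPM here, against 245 to 269 CPM in DMSO 24 h, so it was lower where Krt8 and Krt18 were higher.

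The 2 washout times were also tested against each other: 7 members were higher and 0 lower at 24 h than at 6 h of washout, where 40.3% of all genes were called (19% higher, 21.3% lower). Krt42 rose by 1.58 ± 0.16 (adjusted p = 4.65e-09), Krt17 by 1.503 ± 0.19 (adjusted p = 4.59e-07) and Krt7 by 1.46 ± 0.18 (adjusted p = 1.74e-07). Tgm1 rose by 0.82 ± 0.06, Emp1 by 0.73 ± 0.12, Krt18 by 0.51 ± 0.07 and Krt8 by 0.42 ± 0.08. Krt8 and Krt18 were already above DMSO 24 h at 6 h of washout. Krt7 averaged 3.83 CPM then, against 2.93 CPM in DMSO 24 h, and was not called. The rise of Krt7, Krt8 and Krt18 therefore led away from the vehicle level. Krt19, Krt14 and Tgm2 did not pass (0.25 ± 0.11, 0.06 ± 0.27 and 0.10 ± 0.10).

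Among the structural lists, beside 17.4% of all genes called, 24 h of washout against DMSO 24 h gave 5 higher and 0 lower of 18 adhesion and tight junction genes (median 0.16), among them the splicing regulator Esrp1 (0.83 ± 0.11, adjusted p = 2.12e-06) and the claudin Cldn7 (0.71 ± 0.14, adjusted p = 0.000479). Desmosome genes went both ways, with 3 higher and 2 lower of 12 (median -0.11), as did cornified envelope genes, with 3 higher and 2 lower of 10 (median 0.04), and epithelial transcription factors, with 4 higher and 3 lower of 13 (median -0.09). Tgm3 was higher by 1.01 ± 0.22 (adjusted p = 0.00154) and Krt6a by 1.37 ± 0.31 (adjusted p = 0.0025).

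**Figure D3:**
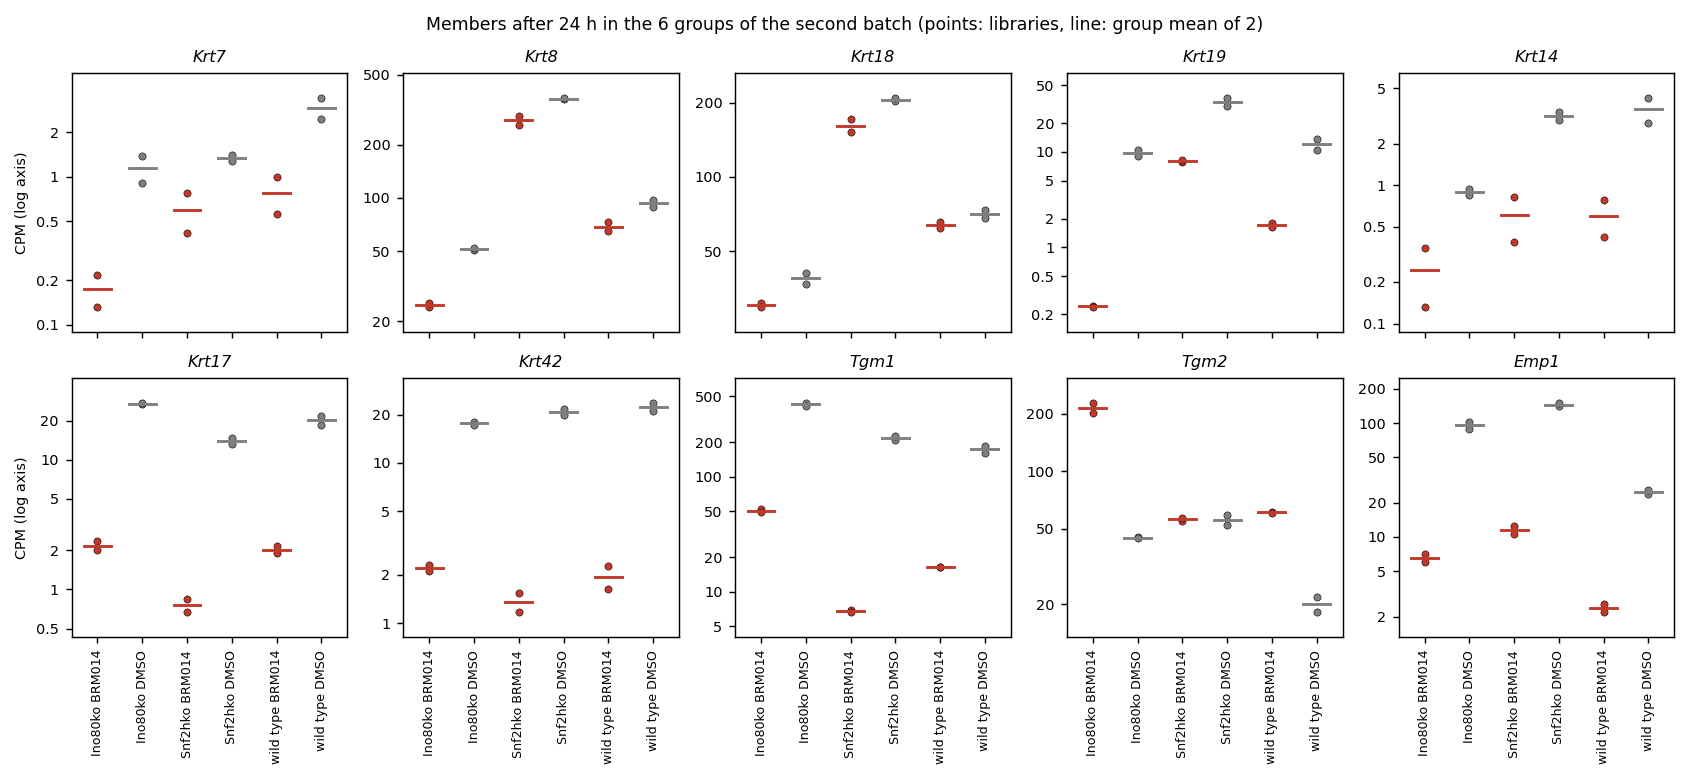
Levels of the 10 members in the second batch, in CPM on a log axis, with each library as a point and the mean of each group of 2 as a line, for Ino80ko, Snf2hko and wild type with BRM014 or DMSO for 24 h. Krt8 reaches 365 to 368 CPM in Snf2hko with DMSO and 50.8 to 51.9 CPM in Ino80ko with DMSO, against 89.1 to 97.5 CPM in wild type with DMSO.

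In the libraries labelled Snf2hko and given DMSO the pair Krt8 and Krt18 was high, and in those labelled Ino80ko it was low, each against wild type in DMSO 24 h. For Snf2hko 6 members were higher and 2 lower, where 56.5% of all genes were called (28.9% higher, 27.7% lower), and for Ino80ko 4 were higher and 5 lower, where 45% were called (22.1% higher, 22.9% lower). Both comparisons share the same 2 wild-type libraries. Krt8 was at 365 and 368 CPM in Snf2hko and at 50.8 and 51.9 CPM in Ino80ko, against 97.5 and 89.1 CPM in wild type (1.95 ± 0.07 and -0.88 ± 0.07, adjusted p = 1e-13 and 1.87e-08). Krt18 was at 203 and 209 CPM and at 36.9 and 40.5 CPM, against 73.4 and 68.3 CPM (1.52 ± 0.08 and -0.89 ± 0.08, adjusted p = 4.86e-12 and 2.68e-08). The 3 genotypes did not overlap for either gene.

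Krt19 was at 29.9 and 36.4 CPM in Snf2hko, against 13.6 and 10.4 CPM in wild type (1.45 ± 0.13, adjusted p = 1.59e-08). In Ino80ko it was at 8.96 and 10.5 CPM, overlapping with wild type (-0.31 ± 0.14, adjusted p = 0.0688), and passed without replicate 4 of DMSO 24 h (-0.50, adjusted p = 0.0101). Krt7 was lower in both lines (-1.13 ± 0.29 in Snf2hko and -1.37 ± 0.30 in Ino80ko, adjusted p = 0.00249 and 0.000991). Krt14 was at 0.851 and 0.946 CPM in Ino80ko, against 4.24 and 2.84 CPM in wild type (-1.99 ± 0.31, adjusted p = 4.3e-05), and did not pass in Snf2hko (-0.18 ± 0.27, adjusted p = 0.599). Krt17 was lower in Snf2hko (-0.54 ± 0.11, adjusted p = 0.000485) and higher in Ino80ko (0.41 ± 0.11, adjusted p = 0.00509), where the call was lost without replicate 4 of DMSO 24 h (0.29, adjusted p = 0.0811). Krt42 in Ino80ko (-0.36 ± 0.11, adjusted p = 0.0159) lost its call without replicate 3 of DMSO 24 h (-0.27, adjusted p = 0.133) and without replicate 1 or 2 of Ino80ko (adjusted p = 0.0584 and 0.114).

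Emp1, Tgm1 and Tgm2 were higher in both lines than in wild type of the same batch. The 1 further transglutaminase that could be tested was lower in Snf2hko (log2 -1.31) and did not pass in Ino80ko (0.14). Emp1 was at 140 and 150 CPM in Snf2hko and at 89.3 and 103 CPM in Ino80ko, against 24.1 and 25.8 CPM in wild type (2.52 ± 0.10 and 1.92 ± 0.10, adjusted p = 1.24e-13 and 1.54e-11). Tgm2 was at 52.1 and 58.9 CPM and at 44.9 and 44.6 CPM, against 21.9 and 18.2 CPM (1.45 ± 0.09 and 1.14 ± 0.09, adjusted p = 1.08e-10 and 8.47e-09). Wild-type DMSO 24 h of the first batch held 46.0 and 44.9 CPM of Tgm2, about the level of Ino80ko. The wild-type vehicle thus differed between the batches by about as much as Ino80ko differed from wild type. Tgm1 was at 437 and 416 CPM in Ino80ko, against 185 and 162 CPM in wild type (1.28 ± 0.07, adjusted p = 6.42e-11), and was higher by a smaller amount in Snf2hko (0.31 ± 0.07, adjusted p = 0.00101).

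Endoderm markers moved with Krt8 and Krt18 across these genotypes. Their summed level in DMSO was 748 to 783 CPM in Snf2hko and 71.2 to 76.8 CPM in Ino80ko, against 148 to 155 CPM in wild type. Of 8 tested markers 8 were higher and 0 lower in Snf2hko (median 2.37), led by Gata6 (2.36 ± 0.08, adjusted p = 1.49e-14) and the visceral endoderm receptor Amn (3.81 ± 0.13, adjusted p = 2.67e-14). In Ino80ko 0 were higher and 6 lower (median -1.16), including Gata4 (-1.46 ± 0.10, adjusted p = 1.08e-09). Of all genes, 28.9% were called higher and 27.7% lower in Snf2hko, and 22.1% and 22.9% in Ino80ko. Of the trophectoderm markers 4 were higher and 2 lower of 7 in Snf2hko, and 2 and 2 in Ino80ko, with Gata3 at 0, while their summed level was lower in both, at 53.3 to 56.0 CPM in Snf2hko and 51.3 to 57.9 CPM in Ino80ko, against 92.5 to 97.9 CPM in wild type. The mesenchyme sum was 362 to 371 CPM in Snf2hko and 135 to 137 CPM in Ino80ko, against 162 to 171 CPM in wild type. The part of these markers in the keratin result was not tested.

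**Figure D4:**
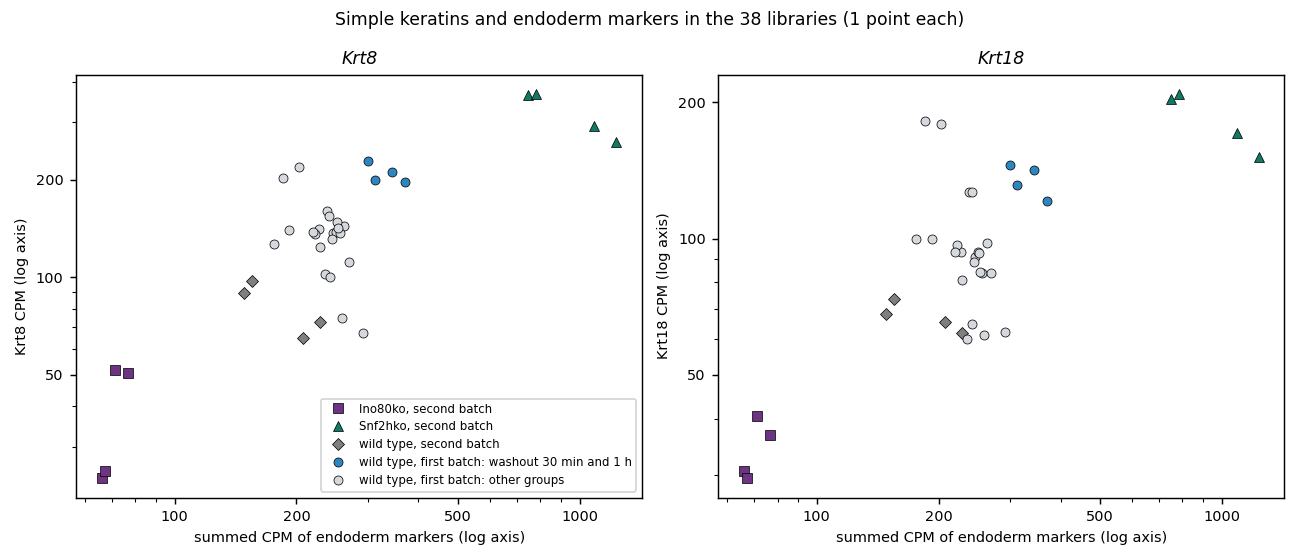
Levels of Krt8 and Krt18 against the summed level of the endoderm markers, both in CPM on log axes, with 1 point for each of the 38 libraries. Ino80ko libraries lie at the low end (marker sum 66.2 to 76.8 CPM) and Snf2hko libraries at the high end (748 to 1234 CPM), while the 26 wild-type libraries of the first batch span 67.6 to 229 CPM of Krt8 at marker sums between 176 and 371 CPM.

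BRM014 for 24 h lowered 9 of the 10 members in either knockout line, against DMSO 24 h of the same line. The members were chosen by their levels under the same treatment in wild type, which may account in part for this count. In Ino80ko 9 were lower and 1 higher (member median -2.85), where 44.5% of all genes were called (22% higher, 22.6% lower), and in Snf2hko 9 were lower and 0 higher (median -2.17), where 56.9% were called (28.7% higher, 28.2% lower). Krt19 was at 0.245 and 0.236 CPM in Ino80ko with BRM014, against 8.96 and 10.5 CPM with DMSO (-5.32 ± 0.25, adjusted p = 2.74e-12). In Snf2hko it was at 7.91 and 8.23 CPM with BRM014, against 29.9 and 36.4 CPM with DMSO (-2.01 ± 0.13, adjusted p = 2.75e-10). Tgm1 was at 52.2 and 49.1 CPM with BRM014 in Ino80ko, against 437 and 416 CPM with DMSO (-3.08 ± 0.08, adjusted p = 5.56e-16). In Snf2hko it was at 6.94 and 6.67 CPM with BRM014, against 209 and 227 CPM with DMSO (-4.98 ± 0.09, adjusted p = 6.11e-18). The treated libraries lay far below the untreated ones of the same line in each case.

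Emp1, Krt17 and Krt42 fell strongly in both lines. Emp1 was at 7.04 and 5.99 CPM with BRM014 in Ino80ko, against 89.3 and 103 CPM with DMSO, and at 10.7 and 12.5 CPM in Snf2hko, against 140 and 150 CPM (-3.89 ± 0.11 and -3.62 ± 0.10, adjusted p = 2.43e-15 and 3.19e-15). Krt17 was at 2.35 and 2.00 CPM against 26.8 and 27.2 CPM in Ino80ko, and at 0.669 and 0.842 CPM against 13.1 and 14.8 CPM in Snf2hko (-3.64 ± 0.14 and -4.17 ± 0.17). Krt42 was at 2.32 and 2.10 CPM against 18.0 and 17.3 CPM in Ino80ko, and at 1.17 and 1.54 CPM against 19.9 and 21.6 CPM in Snf2hko (-3.00 ± 0.15 and -3.90 ± 0.15). These 3 genes stood at or below 12.5 CPM in every BRM014 library of the 2 lines, while no DMSO library of either line was below 13.1 CPM.

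Krt8 and Krt18 fell less. Krt8 was at 24.002 and 25.4 CPM with BRM014 in Ino80ko, against 50.8 and 51.9 CPM with DMSO (-1.06 ± 0.08, adjusted p = 1.69e-09), and at 261 and 292 CPM in Snf2hko, against 365 and 368 CPM (-0.39 ± 0.07, adjusted p = 0.00014). Krt18 fell in both lines (-0.37 ± 0.08 in Ino80ko and -0.33 ± 0.07 in Snf2hko, adjusted p = 0.000851 and 0.000867). In Snf2hko the endoderm marker sum was higher with BRM014, at 1089 to 1234 CPM against 748 to 783 CPM with DMSO, while Krt8 was lower. Krt14 fell in Ino80ko (-1.89 ± 0.48, adjusted p = 0.00306), a call lost without replicate 2 of the treated group (-1.32, adjusted p = 0.0554), and in Snf2hko (-2.33 ± 0.33, adjusted p = 8.26e-06). Krt7 fell in Ino80ko (-2.69 ± 0.46, adjusted p = 8.6e-05) and in Snf2hko (-1.12 ± 0.35, adjusted p = 0.0104). The Snf2hko call of Krt7 was lost without replicate 1 of the treated group (-0.77, adjusted p = 0.123) or of DMSO (-1.05, adjusted p = 0.0534).

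Tgm2 separated the 2 lines. It was at 227 and 202 CPM with BRM014 in Ino80ko, against 44.9 and 44.6 CPM with DMSO (2.26 ± 0.09, adjusted p = 2.13e-13), its highest level in the series. In Snf2hko it was at 54.7 and 57.0 CPM with BRM014, against 52.1 and 58.9 CPM with DMSO, and the interval of the difference ran from -0.15 to 0.21 (adjusted p = 0.791). The difference between the responses, Snf2hko minus Ino80ko, was -2.23 ± 0.12 for Tgm2 (adjusted p = 2.97e-10). It was 3.31 ± 0.33 for Krt19 and 0.68 ± 0.11 for Krt8, which fell less in Snf2hko (adjusted p = 3.64e-07 and 7.19e-05), and -1.90 ± 0.11 for Tgm1 and -0.90 ± 0.23 for Krt42, which fell further there (adjusted p = 8.13e-10 and 0.0049). In this test 2 members were higher and 3 lower, where 34% of all genes were called (16.4% higher, 17.5% lower). Krt7 did not pass (1.57 ± 0.61, adjusted p = 0.0536), but was called without replicate 1 of Ino80ko DMSO (1.82, adjusted p = 0.0421) or of Snf2hko BRM014 (1.91, adjusted p = 0.0287). Emp1, Krt17, Krt18 and Krt14 did not pass either, with intervals of -0.04 to 0.57, -1.05 to 0.00, -0.19 to 0.27 and -1.78 to 0.90.

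The lists around the members were also followed with BRM014 in the knockout lines, where 44.5% of all genes were called in Ino80ko and 56.9% in Snf2hko. Keratins outside the member list had 0 higher and 6 lower of 12 tested in Ino80ko (median -2.85) and 0 and 6 in Snf2hko (median -2.05), with Krt6a at -2.98 ± 0.23 in Snf2hko (adjusted p = 2.52e-09). Emp and Pmp22 family genes had 1 higher and 4 lower of 5 in each line, with Emp2 at -1.14 ± 0.13 and -1.86 ± 0.11. Desmosome genes had 1 higher and 6 lower of 12 in Ino80ko, and 5 and 5 in Snf2hko, where desmoplakin, Dsp, the link between desmosome and keratin filament, rose by 1.42 ± 0.08 (adjusted p = 2.1e-11) and Pkp3 fell by 2.20 ± 0.12 (adjusted p = 2e-11). Hopx, a homeodomain cofactor found in epithelial progenitors, fell in both lines (-3.85 ± 0.17 in Ino80ko and -2.81 ± 0.15 in Snf2hko, adjusted p = 1.19e-12 and 9.44e-12).

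Over the 13 group means of the first batch, the members fell into sets by likeness of log2 level, measured as Pearson's r and given as a description, since the groups share batch and, in part, treatment. The 13 groups include BRM014 24 h and DMSO 24 h, with which the members were chosen. The r between members is therefore not independent of that choice. Krt17 and Krt42 were each other's closest gene among 8114 searched (r = 0.988), followed for both by Inhbb, the activin beta B subunit (0.986 and 0.980). Krt17, Krt42, Tgm1 and Emp1 were paired at r of 0.930 to 0.988. Krt8 was closest to Krt18 (0.921), and Krt18 to Tpm1, a tropomyosin (0.937). Krt19 was closest to Endod1 (0.972), Tgm1 to Pde9a, a cGMP phosphodiesterase (0.981), Emp1 to the septin Sept9 (0.984), Krt14 to Adap1 (0.979) and Krt7 to the IGF-binding protein Igfbp2 (0.944). The r of Tgm2 with the other members lay between -0.69 for Krt19 and -0.09 for Krt7, and Tgm2 was closest to Klc2, a kinesin light chain (0.956).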

How the data were processed

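RNA was measured in 38 libraries of mouse embryonic stem cells, prepared as stranded total RNA libraries per the labels' protocols. The deposited table holds raw read counts per gene, with exonic lengths. The submitters' processing notes name GRCm38 (mm10), the aligner STAR and bcl2fastq 2.17. No source used here names the counting program or says whether it used strand. Groups come from the sample labels. The 10 members and all gene lists were chosen with earlier results of these data known.

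Counts were fitted with edgeR 4.0.16 in R 4.3.3 (quasi-likelihood F-test, TMM scaling, filterByExpr with a minimum count of 10 and a minimum total of 15), with 1 fit for each batch. The first had 12517 genes and 13 residual degrees of freedom, the second 13130 genes and 6. Calls had a Benjamini-Hochberg adjusted p under 0.05 over all genes of the fit. Standard errors are the log2 difference divided by the square root of F, and intervals are 95%. Steps were tested on simulated data. CPM used TMM over all libraries. All members were described in every group; from each list, counts by direction and up to 4 called genes with the smallest adjusted p were eligible to be named, and for each member the 3 most alike genes. Alternatives were DESeq2 1.42.0, other vehicles, filters and samples, the replicate number as a block, and leaving out each library.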

Additional observations from a re-analysis of the deposited data

Results flagged for a closer look

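The response to 24 h of BRM014 differed between the libraries labelled Snf2hko and those labelled Ino80ko in 5 members, by edgeR's quasi-likelihood test of the difference itself (Snf2hko response minus Ino80ko response, log2, n = 2 libraries in each of 4 groups; 34% of all genes were called). The difference was 3.31 for Krt19 and 0.68 for Krt8, which fell less in Snf2hko, and -1.90 for Tgm1 and -0.90 for Krt42, which fell further in Snf2hko. It was -2.23 for Tgm2, which rose in Ino80ko and did not pass in Snf2hko. The endoderm marker sum was 1089 to 1234 CPM in Snf2hko with BRM014, against 748 to 783 CPM with DMSO, and 66.2 to 67.1 CPM in Ino80ko with BRM014, against 71.2 to 76.8 CPM with DMSO. The mesenchyme sum was 943 to 952 CPM in Snf2hko with BRM014, against 362 to 371 CPM with DMSO, and 312 to 324 CPM in Ino80ko with BRM014, against 135 to 137 CPM with DMSO. The epidermis or surface ectoderm sum was 13.1 to 13.3 CPM in Snf2hko with BRM014, against 32.7 to 34.0 CPM with DMSO, and 45.6 to 48.0 CPM in Ino80ko with BRM014, against 46.3 to 49.0 CPM with DMSO. The part of these markers in the differences was not tested.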

How the results depend on the processing

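Sign turns were followed for results called in the main setting or in the other one, and all of these came from the choice of vehicle. With DMSO 24 h as vehicle, 5 members were called at 3 h in place of 3, and 3 at 30 min in place of 0; with the mean of both vehicles it was 2 at 30 min. Signs turned with DMSO 24 h for Tgm1 at 30 min (0.45) and 3 h (0.16), and for Tgm2 at 30 min (-0.76), 3 h (-0.54) and 6 h (-0.066). With the mean of both vehicles they turned at 30 min for Tgm1 (0.22) and Tgm2 (-0.36). With DMSO 1 h as vehicle Tgm2 turned to 0.65 after 6 h and 0.75 after 24 h of washout. These members differed between the vehicles themselves. Using only the compared libraries, 7 members were called at 3 h, and without a filter on low counts 1 was called for the inactive analog at 1 h; the cause was not tested.

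Leaving out each library in turn, members called ranged from 0 to 1 for the analog at 1 h, 2 to 3 at 3 h and for DMSO 24 h against DMSO 1 h, 9 to 10 at 6 h and for BRM014 in Ino80ko, and 4 to 6 for the analog at 24 h, a count that includes Tgm2, which is described only. They ranged from 3 to 4 after 30 min, 7 to 8 after 6 h and 6 to 7 after 24 h of washout, the last 2 against DMSO 24 h, from 8 to 9 for BRM014 in Snf2hko and for Ino80ko against wild type, and from 5 to 6 for the difference between the lines. No sign turned.

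Replicate numbers are not stated to pair samples, and deviations of same-numbered libraries were not alike (median r -0.00408, range -0.107 to 0.138, over 78 group pairs of the first batch). With the replicate number as a block, the difference between the lines was also called for Krt7 (1.53, adjusted p = 0.0456 in edgeR's test), giving 6 members in place of 5; no other member call changed. Genotypes and wild type share no replicate numbers, so that comparison has no block. With 2 libraries a group, small differences in Krt7 and Krt14, the scarcest members, are the least precise.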

Other observations

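Intermediate filament genes other than keratins were followed beside the members. After 6 h of BRM014, against DMSO 1 h, 3 were higher and 5 lower of 13 tested, where 20.3% of all genes were called higher and 20.7% lower. Vim, the mesenchymal filament protein vimentin, rose by 0.52 ± 0.07 and the neurofilament gene Nefl by 0.86 ± 0.08, while Nefh, another neurofilament gene, fell by 1.19 ± 0.07 and Des, the muscle filament protein desmin, fell by 0.97 ± 0.12 (SE, adjusted p = 4.68e-07, 2.06e-09, 7.81e-14 and 3.54e-07 in edgeR's test). With 24 h of BRM014 Vim rose by 1.34 ± 0.07 in Ino80ko and 1.43 ± 0.07 in Snf2hko, and Des fell by 2.73 ± 0.11 and 4.25 ± 0.14, each against DMSO 24 h of the same line.

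Of 14 tested cornified envelope genes, 8 were higher and 0 lower in the libraries labelled Snf2hko than in wild type, both in DMSO, where 28.9% of all genes were called higher and 27.7% lower. Among the 8 were the protease inhibitor Cstb (1.37 ± 0.08, adjusted p = 3.36e-11) and the calcium-binding protein S100a10 (0.89 ± 0.09, adjusted p = 4.59e-08). With BRM014 in that line 2 of the 14 were higher and 6 lower, where 28.7% of all genes were called higher and 28.2% lower, with S100a6 at -1.74 ± 0.12 and Anxa8 at -3.46 ± 0.22 (adjusted p = 4.04e-10 and 1.58e-10).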
